A study of Homo sapiens with 24 samples.

Results

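A panel of NF-kappaB cytokine, chemokine and feedback genes was examined in RT112 cells, a human line grown from a bladder carcinoma. The 10 listed genes were CXCL1, CXCL2, CXCL3, CCL20, IL1A, IL1B, IL6, TNFAIP3, NFKBIA and BIRC3, and each was read from its annotated probe set with the highest mean over all 24 arrays. This gave 9 measured members among 19775 genes. No probe set carried BIRC3 as its only symbol in the annotation used, so BIRC3 was not analysed here.

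NF-kappaB is a family of transcription factors held in the cytoplasm by IkappaB proteins. Signals from interleukin-1, tumour necrosis factor or Toll-like receptors activate the IkappaB kinases, the inhibitor is degraded, and the freed factor switches on cytokine and chemokine genes together with its own brakes. In epithelia such as the urothelium these products recruit neutrophils and lymphocytes, and the brakes, IkappaB-alpha and A20, end the response.

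Each line expressed a short hairpin RNA under doxycycline control and was grown in medium with 1% serum. The 3 FGFR3 hairpin lines are called 2-4, 4-1 and 6-16, and the control line carries a hairpin against EGFP, a jellyfish gene that human cells lack. FGFR3, a fibroblast growth factor receptor, is frequently mutated or fused in urothelial tumours. Each of the 4 lines had 3 arrays labelled with doxycycline at 1 µg/ml for 48 h and 3 labelled without it, giving 8 groups and 24 arrays. The labels do not say whether replicates came from separate cultures, so p-values below measure only the spread between these arrays. Levels are log2 values from RMA, in which each probe set can be compared between arrays but not with another probe set. In RNA from a bulk culture, fewer expressing cells and less RNA per cell cannot be told apart.

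Array profiles did not follow the labels. Over all genes, 0 of the 24 arrays had as its nearest array one of its own labelled group, and 0 had one of its own labelled line. TACC3, to which FGFR3 is fused in this line, lay below 11.6 on 9 arrays and above it on 15, and 7 of the 8 labelled groups had arrays on both sides. The 9 arrays were 4 labelled with doxycycline and 5 labelled without it. The nearest values on either side of 11.6 were 11.43 and 11.82. All 24 arrays had their nearest array on their own side. FGFR3 on its brighter probe set spanned 11.13 to 12.34 and did not pass limma's test as lower with doxycycline in any FGFR3 line. Its mean with and without doxycycline was 11.92 and 11.77 in line 2-4, 11.84 and 12.08 in line 4-1, and 12.09 and 11.67 in line 6-16. For TACC3 these means were 11.94 and 11.66 in line 2-4, 11.74 and 11.42 in line 4-1, and 11.57 and 12.28 in line 6-16. Mean levels lay above the average array median for all 16 measured epithelial and urothelial markers, 2 of 10 leukocyte, 6 of 10 fibroblast and 4 of 5 endothelial markers. PTPRC, which defines leukocytes, was at 5.60 to 5.97, and the fibroblast matrix gene LUM, the highest of its list, at 12.84 to 13.56. The next highest, COL1A1, was at 9.02 to 9.39. The marker counts set unlike probe sets against each other and are a rough description only. With no detection call, these levels do not show which of the genes were expressed. Arrays are named by their labels only. Whether each column of values carries its right label was not tested, and every doxycycline change, standard error and p-value below depends on the labels. The division at 11.6 follows a measured value, not a treatment, and nothing was tested over it.

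Most promoters of the panel hold an NF-kappaB motif. The members were listed as NF-kappaB genes, so their share of matches is a description and no independent support. In RefSeq sequences of GRCh38.p14 that run from 250 bases before to 50 bases after each annotated start, 8 of the 10 listed genes held the NF-kappaB consensus motif on either strand, as did 11.27% of all 35116 promoters. The exceptions were IL1A and IL1B. In CXCL1, CXCL2, CXCL3, CCL20, NFKBIA, IL6 and TNFAIP3 every match lay between positions -81 and -46 from the start. The motif is nearly the same read on either strand, so the CXCL1, CXCL2 and CXCL3 matches are pairs overlapping by all but 1 base. AP-1 motifs, spelled TGANTCA and palindromic, were found only in IL1A among the 10 genes, and in 7.71% of all promoters. A match describes letters only and shows no binding.

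Upstream sequences of 4 members are given because NFKBIA, TNFAIP3 and CCL20 had the widest ranges over the arrays and CXCL1 a narrow one. The 250 bases before the start are written 5′ to 3′ on the gene's own strand, with bases of the NF-kappaB motif in capitals. They lie at chr14:35404750-35404999 on the minus strand for NFKBIA, chr6:137867009-137867258 on the plus strand for TNFAIP3, chr2:227813592-227813841 on the plus strand for CCL20 and chr4:73869143-73869392 on the plus strand for CXCL1.
NFKBIA: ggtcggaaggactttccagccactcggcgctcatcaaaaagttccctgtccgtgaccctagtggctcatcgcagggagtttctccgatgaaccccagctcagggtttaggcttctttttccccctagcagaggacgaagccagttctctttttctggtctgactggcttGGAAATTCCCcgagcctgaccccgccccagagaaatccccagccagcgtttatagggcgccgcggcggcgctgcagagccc
TNFAIP3: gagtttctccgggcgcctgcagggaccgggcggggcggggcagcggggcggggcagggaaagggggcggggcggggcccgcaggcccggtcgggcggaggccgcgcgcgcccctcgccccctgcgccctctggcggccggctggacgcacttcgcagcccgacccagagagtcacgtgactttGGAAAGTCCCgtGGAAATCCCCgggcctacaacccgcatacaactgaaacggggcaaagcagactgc
CCL20: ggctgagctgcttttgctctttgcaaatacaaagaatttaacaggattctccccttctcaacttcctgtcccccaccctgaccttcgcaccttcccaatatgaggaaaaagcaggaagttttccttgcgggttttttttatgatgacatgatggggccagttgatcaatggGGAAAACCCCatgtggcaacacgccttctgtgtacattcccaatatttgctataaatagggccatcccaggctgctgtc
CXCL1: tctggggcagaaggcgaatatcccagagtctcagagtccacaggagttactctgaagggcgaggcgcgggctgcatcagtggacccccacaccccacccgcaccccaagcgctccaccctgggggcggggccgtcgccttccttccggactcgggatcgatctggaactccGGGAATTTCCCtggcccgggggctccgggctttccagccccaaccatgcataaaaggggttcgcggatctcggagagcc

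**Figure D1:**
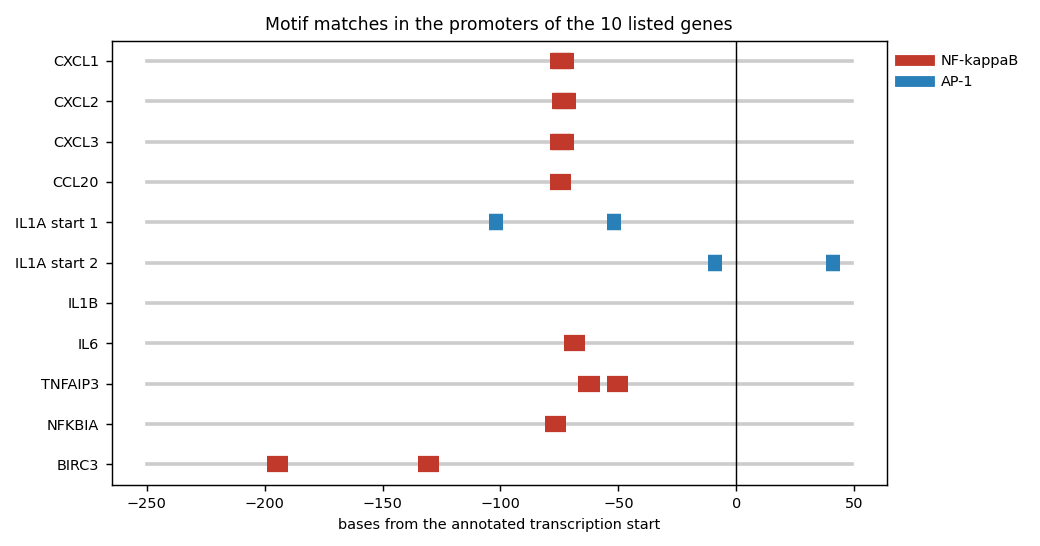
Motif matches in the promoters of the 10 listed genes. The horizontal axis gives bases from the annotated transcription start, grey lines are the windows searched, and coloured blocks are matches of the NF-kappaB and AP-1 motifs; IL1A has 2 annotated starts, IL1A and IL1B hold no NF-kappaB match, and the matches of 7 genes fall between -81 and -46.

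NFKBIA, which encodes the inhibitor IkappaB-alpha, had levels from 10.53 to 11.71 over the 24 arrays. In the 2-4 line it was 10.82, 11.38 and 10.84 with doxycycline, against 10.71, 11.71 and 10.53 without. In the 4-1 line it was 11.15, 11.10 and 10.70 with doxycycline, against 11.54, 11.63 and 10.84 without. Labelled groups overlapped in both lines. In the 6-16 line it was 10.83, 11.67 and 10.74 with doxycycline, against 10.67, 10.99 and 10.57 without. In the EGFP line it was 10.72, 10.76 and 11.32 with doxycycline, against 11.67, 11.09 and 11.25 without. Again the groups overlapped. On the log2 scale NFKBIA differed by 0.03 in line 2-4, -0.35 in line 4-1, 0.34 in line 6-16 and -0.41 in the EGFP control, and the standard error (SE) was 0.30 throughout. None passed, with limma adjusted p of 0.999, 1.00, 0.802 and 0.975. The sign of the 2-4 change rested on single arrays and ran from -0.20 to 0.39 with 1 array left out.

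Sorted by TACC3 instead of by label, NFKBIA fell into levels that did not overlap. The 9 arrays with TACC3 below 11.6 had a lowest level of 11.15, a median of 11.54 and a highest of 11.71. The 15 arrays above it had 10.53, 10.76 and 11.10. The gap between the sides was thus 11.15 against 11.10. The second NFKBIA probe set ran from 6.33 to 6.55 on the arrays below and from 6.24 to 6.63 on those above, so it overlapped.

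TNFAIP3 encodes A20, a ubiquitin-editing enzyme that shuts off signalling to the IkappaB kinases. In the 2-4 line its levels were 7.34, 7.72 and 7.32 with doxycycline, against 7.17, 7.66 and 7.27 without. In the 4-1 line they were 7.58, 7.30 and 7.31 with doxycycline, against 7.60, 7.91 and 7.30 without. In each of these 4 groups 1 or 2 arrays stood above the rest. In the 6-16 line levels were 7.31, 7.56 and 7.09 with doxycycline, against 7.06, 7.23 and 7.11 without. In the EGFP line they were 7.34, 7.27 and 7.65 with doxycycline, against 8.05, 7.19 and 7.96 without. The labelled groups overlapped in all 4 lines. Differences with minus without doxycycline came to 0.09 in line 2-4, -0.21 in line 4-1, 0.18 in line 6-16 and -0.32 in the EGFP control (log2, SE 0.20), and limma adjusted p ran from 0.842 to 1.00.

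TNFAIP3 separated by TACC3 as NFKBIA did. The 9 arrays below 11.6 had levels of 7.56 to 8.05 with a median of 7.66. The 15 arrays above it had levels of 7.06 to 7.34 with a median of 7.27, so no array above reached the lowest of those below. On its other probe set the sides had medians of 7.08 and 6.66 in the same order but overlapped, with 6.63 to 7.30 below and 6.27 to 6.92 above.

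CCL20, the chemokine that attracts CCR6-bearing lymphocytes and dendritic cells, had the widest range of the panel, 1.57 on the log2 scale. In the EGFP line its levels were 6.01, 5.87 and 6.76 with doxycycline, against 7.33, 5.76 and 6.53 without. In the 2-4 line they were 6.03, 6.63 and 6.14 with doxycycline, against 5.98, 5.99 and 6.11 without. The EGFP group without doxycycline thus held both the highest and the lowest of the 24 levels. In the 4-1 line levels were 6.39, 5.83 and 5.87 with doxycycline, against 6.12, 6.39 and 6.36 without. In the 6-16 line they were 6.03, 6.17 and 6.07 with doxycycline, against 6.01, 5.95 and 6.10 without. Groups overlapped in every line. For CCL20 the difference was 0.24 in line 2-4, -0.26 in line 4-1, 0.07 in line 6-16 and -0.32 in the EGFP control (log2, SE 0.28), and limma adjusted p ran from 0.964 to 1.00. The EGFP line change ran from -0.71 to 0.07 with 1 array left out, the upper end being the value without replicate 1 of the arrays without doxycycline.

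CCL20 levels on the 9 arrays with TACC3 below 11.6 were 5.99 to 7.33 with a median of 6.39. On the 15 arrays above, they were 5.76 to 6.36 with a median of 6.01. The sides overlapped, and 6 of the 9 arrays below exceeded every array above. The other 3 of the 9 were the arrays with the lowest TACC3, at 10.49, 10.64 and 10.79, where CCL20 was 5.99, 6.17 and 6.12.

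**Figure D2:**
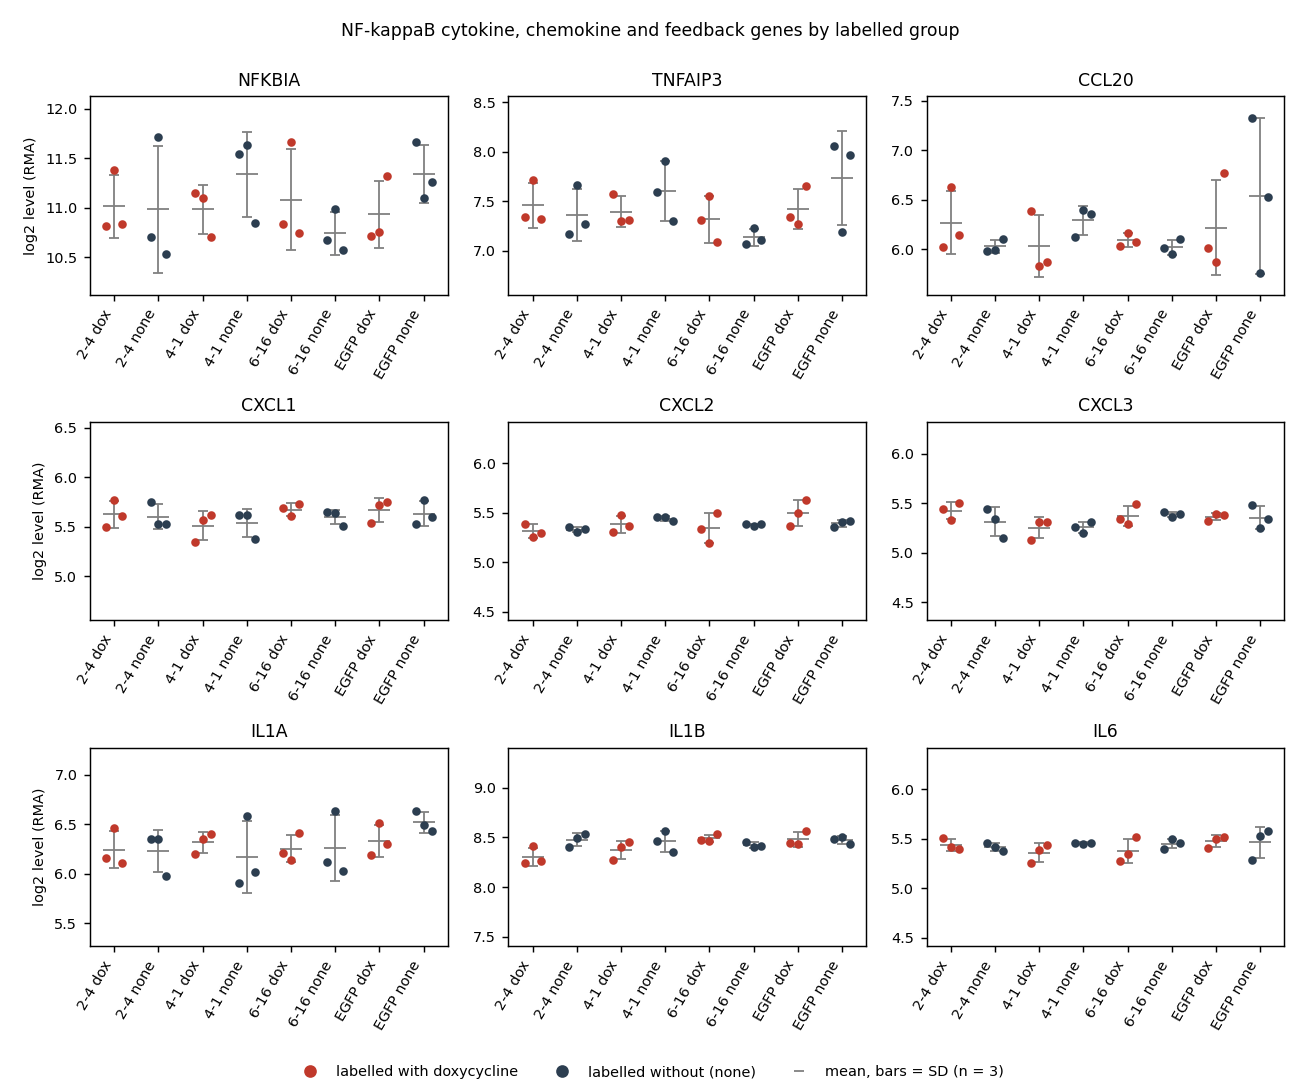
Log2 levels of the 9 measured members in the 8 labelled groups, dox (with doxycycline) left of none (without) for each line. Points are arrays, grey dashes are means and bars are SD (n = 3); every panel spans 2 log2 units. NFKBIA and TNFAIP3 spread widely inside most groups. The SD of CCL20 runs from 0.07 in the 2-4 group without doxycycline to 0.79 in the EGFP group without it. CXCL1, CXCL2, CXCL3, IL1B and IL6 have log2 ranges of at most 0.43 over all arrays.

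The neutrophil chemokines CXCL1, CXCL2 and CXCL3, which signal through CXCR2, varied little. CXCL1 levels ran from 5.35 to 5.77, a range of 0.42, CXCL2 from 5.20 to 5.63, a range of 0.43, and CXCL3 from 5.13 to 5.51, a range of 0.37. The median range over all 19775 genes was 0.49. On the arrays with TACC3 below 11.6 the medians of CXCL1, CXCL2 and CXCL3 were 5.61, 5.36 and 5.33, against 5.62, 5.38 and 5.36 on the arrays above, with both sides overlapping for each gene. Their largest labelled change was 0.11 for CXCL3 in the 2-4 line, with an SE of 0.08 and a limma adjusted p of 0.999. The other 2 CXCL2 probe sets also overlapped between the sides. These 3 genes are close paralogs, and how far their probes respond to each other's transcripts was not tested. No detection call accompanies RMA values, so whether these genes were expressed above background was not tested.

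The interleukins behaved in 2 ways. IL1B, the secreted form of interleukin-1, had levels of 8.24 to 8.57, and IL6, which acts through the IL6R and IL6ST receptor pair, had 5.25 to 5.58. A narrower range than theirs was seen for 9.0% of all genes. IL1A, the form of interleukin-1 released from damaged epithelial cells, ranged more widely, from 5.91 to 6.63, but its sides overlapped almost fully. IL1A was 5.91 to 6.63 with a median of 6.35 on the 9 arrays with TACC3 below 11.6, against 5.98 to 6.63 with a median of 6.21 on the 15 above. Medians on the arrays below and above were 8.47 and 8.43 for IL1B, and 5.42 and 5.46 for IL6. The second probe sets of IL1A and IL1B overlapped as well.

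In single lines, 2 interleukin comparisons had no overlap between labelled groups. IL1B in the 6-16 line was 8.47, 8.47 and 8.54 with doxycycline, against 8.46, 8.41 and 8.41 without. IL6 in the 4-1 line was 5.25, 5.39 and 5.44 with doxycycline, against 5.46, 5.44 and 5.46 without. The log2 changes were 0.07 with an SE of 0.07 for IL1B and -0.09 with an SE of 0.08 for IL6, and limma's adjusted p was 0.821 and 1.00. Such separation held for 14.3% of all genes in the 6-16 line and 3.79% in the 4-1 line. It held for 7.43% in the 2-4 line and 10.6% in the EGFP line, where no member showed it. IL1B in the 2-4 line had the only member change with a 95% interval that excluded 0, at -0.17 (-0.31 to -0.03), with an unadjusted p of 0.0185 and a limma adjusted p of 0.999. An unadjusted p under 0.05 was found for 2.46% of all genes in that line.

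Over the panel, limma called 0 of 9 members in each of the 4 lines, and 0.00% of all genes. Members above 0 numbered 7, 1, 5 and 5 of 9 in the 2-4, 4-1, 6-16 and EGFP lines, with median log2 changes of 0.02, -0.09, 0.07 and 0.01. The medians over all genes were -0.01, -0.01, 0.03 and 0.02. An unadjusted p under 0.05 was reached by 1 member in line 2-4 and by none elsewhere. Over all genes the share was 1.13% for line 4-1, 7.78% for line 6-16 and 2.55% for the EGFP control. Array weights raised the calls for line 6-16 to 1291 of 19775 genes, of which 0 were members. With only 9 members, that 0 says little about the panel. The mean FGFR3 line change minus the EGFP line change was 0.41 for NFKBIA, with a 95% interval of -0.31 to 1.13. It was 0.34 for TNFAIP3 (-0.15 to 0.83) and 0.34 for CCL20 (-0.33 to 1.01). These values hold the EGFP line change with opposite sign. The CCL20 value turned to -0.06 when EGFP replicate 1 without doxycycline was left out. IL1A had 0.24 (-0.17 to 0.65), and the other 5 members ran from -0.14 for CXCL2 to 0.02 for CXCL3. No member passed, each with a limma adjusted p of 1.00, and 0.00% of all genes were called. At an unadjusted p under 0.05 there were 0 members and 2.16% of all genes. The intervals of the 3 widest-ranging members reach beyond 0.8, so a change of that size lies inside them.

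**Figure D3:**
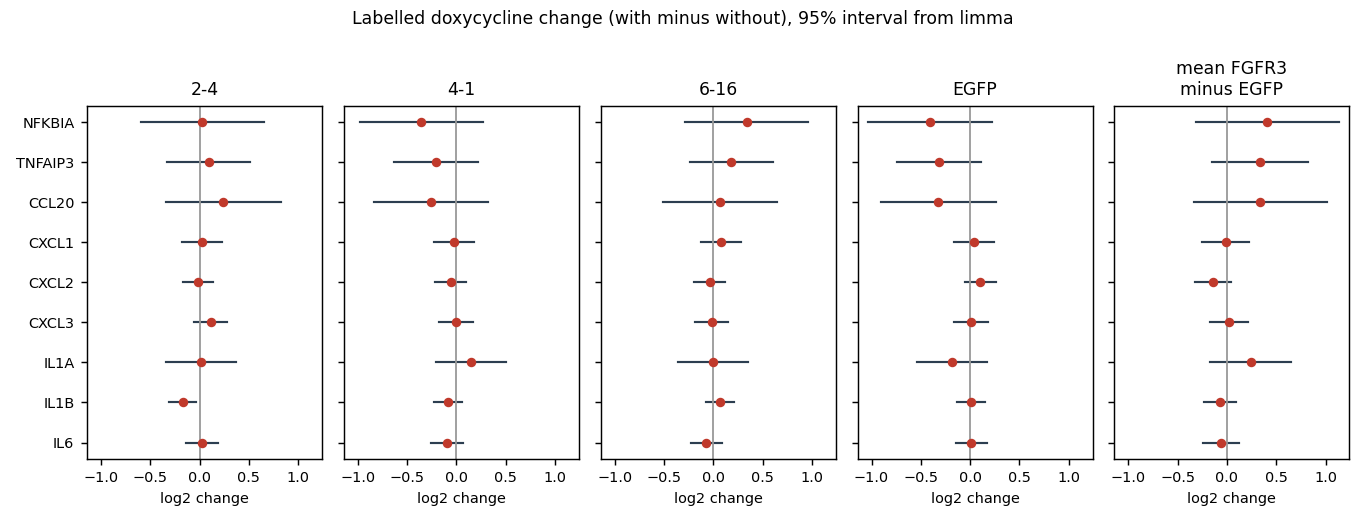
Log2 change with doxycycline minus without for the 9 members in each labelled line, and the mean FGFR3 line change minus the EGFP line change. Points are limma estimates and lines are 95% intervals; every interval crosses 0 except that of IL1B in the 2-4 line.

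Differences among the 3 FGFR3 hairpins were also examined with limma's F-test, which called 0 of 9 members and 0.00% of all genes, and put 0 members and 3.22% of all genes at an unadjusted p under 0.05. Its adjusted p was 1.00 for NFKBIA, TNFAIP3 and CCL20. In cells without doxycycline, all 9 members had lower mean levels in the FGFR3 lines than in the EGFP line. The differences ran from -0.42 to -0.01, with a median of -0.05 against 0.00 over all genes. The median SE over all genes was 0.08, and the share of all genes below 0 was not counted. Limma called 0 of 9 there and 0.00% of all genes. The 2 members at an unadjusted p under 0.05, against 2.91% of all genes, were IL1A (-0.30) and TNFAIP3 (-0.37). Of the arrays without doxycycline, 3 of 9 in the FGFR3 lines and 2 of 3 in the EGFP line had TACC3 below 11.6, and the part of this in the differences was not tested.

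By TACC3, 2 of 9 members, or 22.2%, lay wholly higher on the arrays below 11.6 and 0 lay wholly lower. Over all genes the shares were 2.90% and 3.09%. RNA quality moved with the same division. The excess of 3' over 5' signal for GAPDH was 0.28 to 0.42 on the 9 arrays below, against 0.20 to 0.29 on the 15 above. For ACTB it was 0.79 to 1.17 below, against 0.70 to 0.97 above. Its part in the levels was not tested. The mean level of the 10 measured leukocyte markers was 6.54 to 6.80 on the arrays below and 6.53 to 6.80 on those above, that of the 10 fibroblast markers was 7.63 to 7.77 and 7.61 to 7.77, and that of the 5 endothelial markers 7.54 to 7.69 and 7.60 to 7.80. The 16 epithelial and urothelial markers averaged 11.83 to 12.16 below and 11.65 to 11.95 above, with 4 wholly higher below and 1 wholly lower, and their part was not tested.

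**Figure D4:**
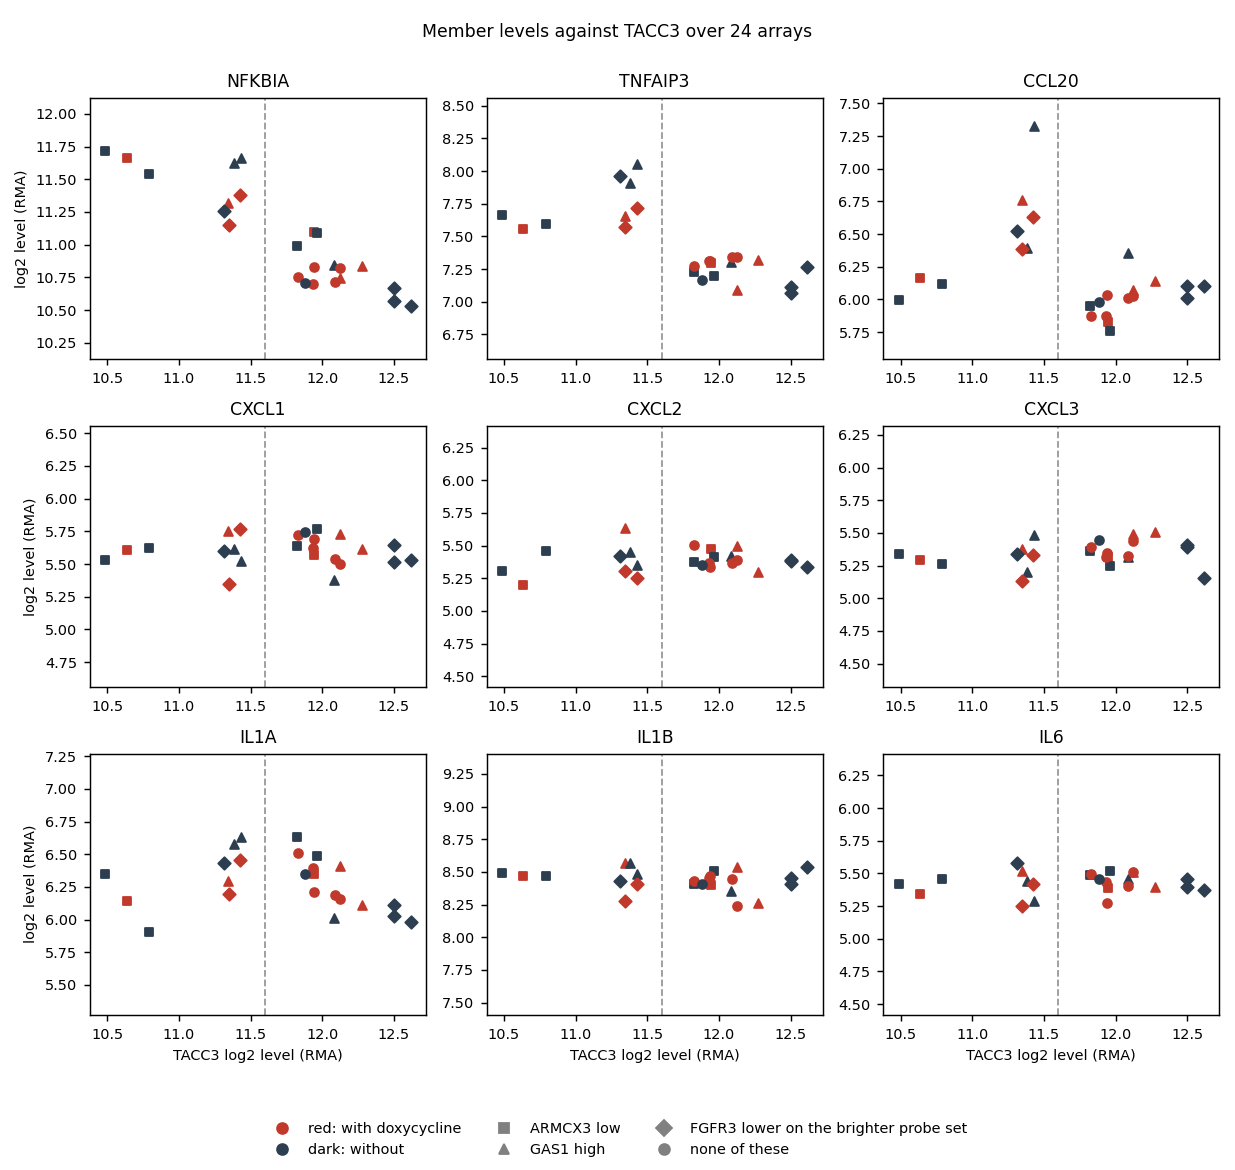
Log2 levels of the 9 members against the TACC3 log2 level on each of the 24 arrays, every panel spanning 2 log2 units. Colour gives the doxycycline label, symbols give the 4 sets of 6 arrays described in the text, and the dashed line marks 11.6. NFKBIA and TNFAIP3 lie wholly higher left of the line. CCL20 does so within each set that has arrays on both sides, by as little as 6.39 against 6.36 in the GAS1-high set. IL1A separates in opposite directions in 2 sets, but in the ARMCX3-low set only at 6.351 against 6.353. The other 5 members overlap over all arrays and in each set.

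Arrays also fell into 4 sets of 6 by the levels of 3 genes. ARMCX3 was 4.25 to 4.93 on 6 arrays and at least 9.45 on the others. GAS1 was 8.52 to 9.47 on another 6 and at most 6.51 elsewhere. FGFR3 on its brighter probe set was 11.13 to 11.43 on 6 more, and the last 6 had none of these marks and TACC3 above 11.6 throughout. The sets were drawn after values were seen, each held arrays labelled as all 4 lines, and each of the 3 marked sets had 3 arrays on either side of 11.6. They are arrays of like profile, and how they relate to the groups of the study was not tested.

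Within each marked set, CCL20 was higher on the arrays with TACC3 below 11.6 without overlap. It was 5.99, 6.12 and 6.17 below, against 5.76, 5.83 and 5.95 above, in the ARMCX3-low set. It was 6.39, 6.76 and 7.33 below, against 6.07, 6.14 and 6.36 above, in the GAS1-high set. In the set with low FGFR3 it was 6.39, 6.53 and 6.63 below, against 6.01, 6.10 and 6.11 above. The margin was thin in the ARMCX3-low set, at 5.99 against 5.95, and in the GAS1-high set, at 6.39 against 6.36. Whether CCL20 was expressed above background was not tested. All 6 arrays of the ARMCX3-low set had CCL20 at or below 6.17. NFKBIA and TNFAIP3 were higher below 11.6 in each marked set too, but their separation over all arrays fixed this in advance. Only CCL20 was added within the sets. Counted together, 3 of 9 members, or 33.3%, were higher in each set, against 7.63% of all genes. Lower in each set were 0 members, against 6.67%. Both shares of all genes likewise hold the genes that separated over all arrays. NFKBIA medians below and above were 11.67 and 11.09 in the ARMCX3-low set, 11.63 and 10.84 in the GAS1-high set, and 11.25 and 10.57 in the set with low FGFR3. IL1A went opposite ways, at 5.91, 6.14 and 6.35 below against 6.35, 6.49 and 6.63 above in the ARMCX3-low set, and 6.20, 6.43 and 6.46 below against 5.98, 6.02 and 6.11 above in the set with low FGFR3. Whether the sets differ was not tested.

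Other genes of the pathway were taken from 5 lists with 89 measured of 98 listed genes. Limma called 0 of the 89 in every labelled comparison. By TACC3, 6 of 89, or 6.74%, lay wholly higher on the 9 arrays below 11.6, and 3, or 3.37%, wholly lower, against 2.90% and 3.09% of all genes. Within each of the 3 marked sets, 15 of the 89, or 16.9%, were higher below 11.6 without overlap and 8, or 8.99%, lower, against 7.63% and 6.67% of all genes. These counts hold the 6 and 3 genes that separated over all arrays and so had to separate within the sets. In each list the gene with the widest range is described, and the other genes named were chosen after their values were seen.

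Among the 5 subunits, REL, which encodes c-Rel, ranged most, with levels of 9.97 to 10.47 on the arrays with TACC3 below 11.6, against 9.21 to 9.78 on those above. It was the only subunit that separated. Among the 10 inhibitor and feedback genes NFKBIZ, a nuclear IkappaB protein that co-activates cytokine genes, was 10.79 to 11.42 below, against 10.41 to 11.93 above. Its highest levels were on the 3 ARMCX3-low arrays above 11.6. Within the marked sets NFKBIZ separated, in opposite directions. In the ARMCX3-low set it was lower, at 11.27 to 11.42 below, against 11.72 to 11.93 above. In the GAS1-high set it was higher, at 10.79 to 11.19 below, against 10.71 to 10.74 above. In the set with low FGFR3 it was also higher, at 10.97 to 11.25 below, against 10.41 to 10.64 above. TNIP1, a partner of A20, separated at 10.38 to 10.63 below, against 10.18 to 10.35 above. Of the 20 kinases and adaptors, CHUK, the IkappaB kinase alpha subunit, was 7.73 to 8.63 below, against 8.21 to 8.87 above, and overlapped. IRAK1, a kinase downstream of the interleukin-1 receptor, was lower at 11.03 to 11.42 below, against 11.58 to 11.91 above.

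Of the 21 receptors, IL1R1, the signalling receptor for both interleukin-1 forms, had 7.44 to 8.01 on the arrays with TACC3 below 11.6, against 6.08 to 6.85 on those above. TLR5, the flagellin receptor, had 7.73 to 8.14 below, against 7.24 to 7.68 above. Both separated in the same direction as NFKBIA. Of the 33 other target genes, IL1RN, the interleukin-1 receptor antagonist, ranged most, from 9.48 to 10.96 below, against 8.64 to 10.06 above. Its sides overlapped over all arrays but not within a marked set. IL1RN was 10.92 to 10.96 below, against 9.92 to 10.06 above, in the ARMCX3-low set, 9.48 to 9.60 below, against 8.64 to 8.94 above, in the GAS1-high set, and 9.60 to 9.79 below, against 9.02 to 9.05 above, in the set with low FGFR3. TNFSF10, the death ligand TRAIL, had 13.78 to 13.94 below, against 13.12 to 13.36 above, and EFNA1, an ephrin ligand, 9.71 to 10.02 below, against 9.06 to 9.34 above. The interferon-induced chemokine CXCL11 was lower, at 4.15 to 4.63 below, against 4.95 to 6.18 above, and so was the cytokine LIF, at 7.24 to 7.49 below, against 7.59 to 8.10 above. TNF itself had 6.26 to 6.64 below, against 6.25 to 6.68 above. CXCL8, which encodes interleukin-8, overlapped at 6.18 to 6.70 below, against 6.05 to 6.54 above.

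**Figure D5:**
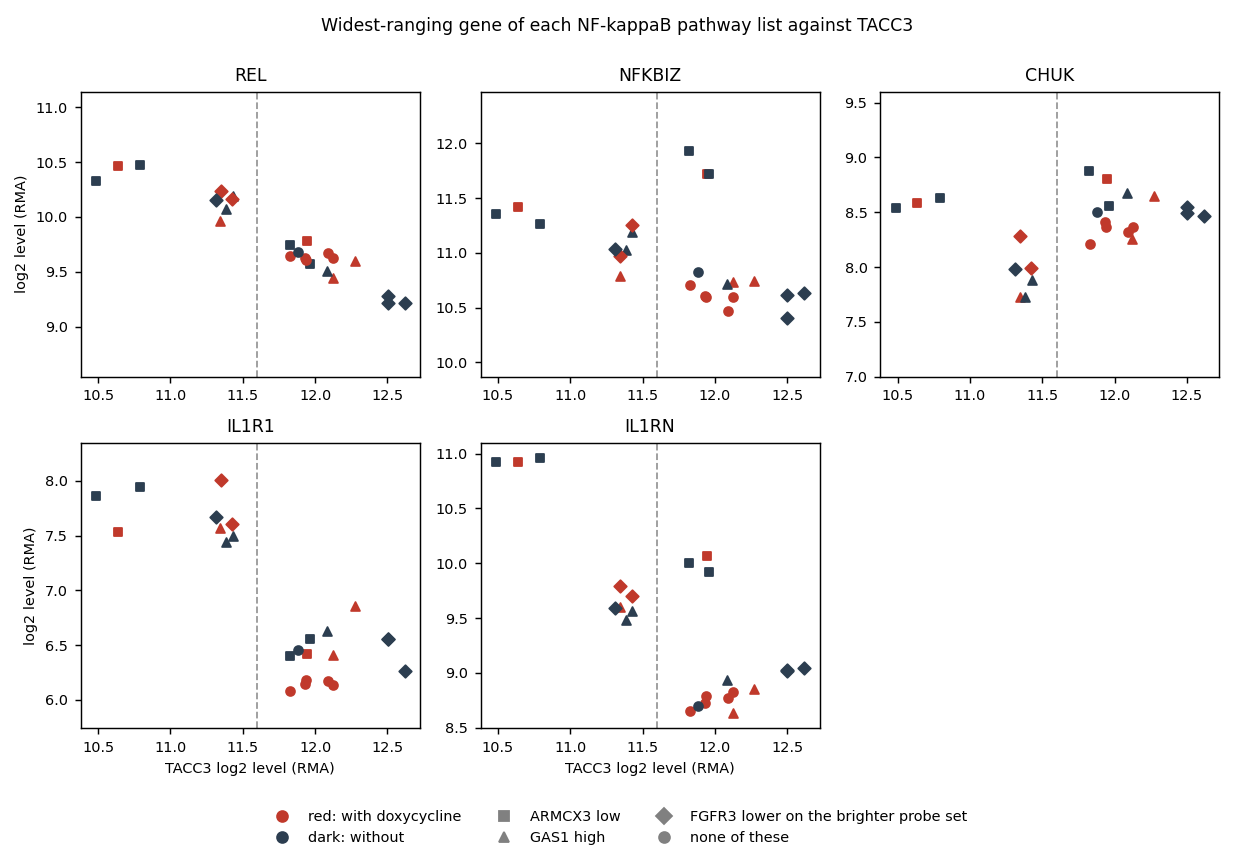
Log2 levels of the widest-ranging gene of each of 5 NF-kappaB pathway lists against TACC3 on the 24 arrays, with colours and symbols for the doxycycline label and the sets of 6 arrays. REL and IL1R1 lie wholly higher left of the dashed line at 11.6, and NFKBIZ, CHUK and IL1RN overlap over all arrays. IL1RN lies higher left of the line within each set that has arrays on both sides. NFKBIZ lies lower there in the ARMCX3-low set and higher in the GAS1-high set and the set with low FGFR3.

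The genes whose levels over the 24 arrays were most like those of CCL20 were PCDHGA4, HMCN1, TSPAN8, AHNAK2 and SPOCK1, with Pearson correlations of 0.867, 0.863, 0.853, 0.853 and 0.849. For NFKBIA, added after its values were seen, they were CPAMD8, UPK1A, TRIM29, ID2 and DHRS2, with 0.956, 0.952, 0.952, 0.951 and 0.950. The arrays share the division by TACC3, so these values describe likeness over these arrays and are no test. UPK1A, a uroplakin of the urothelial surface, was 12.08 to 12.97 on the arrays with TACC3 below 11.6, against 10.01 to 11.36 on those above.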

How the data were processed

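Expression was measured on Affymetrix 3' arrays, per the labels' protocols. The deposited values are log2 expression values for 54675 probe sets, which the authors made with RMA and the affy package, per the submitters' processing notes. Versions and the probe grouping are not given in the sources used here. RMA quantile-normalizes, which removes a change shared by most genes. Probe sets with 1 symbol in GEO's platform annotation (41097) were kept, giving 19775 genes by highest mean, with no filter on low values. A limma model (3.58.1, R 4.3.3) with 1 coefficient for each of 8 groups had 16 residual degrees of freedom and 3.13 from the prior. P-values were adjusted by Benjamini-Hochberg over all genes, with a threshold of 0.05. The model was tested on simulated data. Precision is limited by the 3 arrays in a group, as arrays have no depth.

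The members and lists were chosen with earlier results of these data known. Named genes are the members, the widest-ranging gene of each pathway list where none passed, and the 5 genes most correlated with the widest-ranging member. Other genes named (TNIP1, IRAK1, TLR5, TNFSF10, EFNA1, CXCL11, LIF, TNF, CXCL8, the label-check markers and the genes most like NFKBIA) fall outside this rule and were chosen after their values were seen. Motifs were searched in RefSeq promoters. Alternatives were a replicate block, the arrays compared alone, array weights, a filter on low values, the probe set with the highest SD, arrays centred on their median, an intensity trend with a robust prior, and leaving out each array.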

Additional observations from a re-analysis of the deposited data

How the results depend on the processing

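No member passed limma's test under any of 7 alternatives or with any array left out, the smallest adjusted p being 0.118. The count of genes called was 0 in every labelled comparison with all settings, except in the 6-16 line, where it was 1291 with array weights, 1 with the replicate block and 1 when that line was fitted alone. The cause was not tested. Same-numbered arrays with and without doxycycline had deviations that correlated at over 0.1 in 9 of 12 pairs (-0.528 to 0.609 over all). Of the 24 arrays, 15 correlated best with their own number among the 3 arrays of the line's other doxycycline group. Whether the numbers pair the samples was not tested. The main model did not pair them, and the replicate block was the alternative that used the numbers.

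With array weights the sign turned for CXCL1 in the 2-4 line (-0.046) and the 4-1 line (0.0032), CXCL3 in the 4-1 line (0.032), IL1A in the 2-4 line (-0.043) and the 6-16 line (0.062), and IL1B (-0.0015) and IL6 (-0.0100) in the EGFP line. With the probe set of highest SD it turned for CXCL2 in the 2-4 (0.13), 4-1 (0.094) and 6-16 (0.28) lines and in the FGFR3 minus EGFP contrast (0.13), and for IL1B in the 6-16 (-0.064) and EGFP (-0.0079) lines. Leaving out 1 array gave the other sign in 44 of 432 member values. In the 2-4 line the ranges were CXCL1 from -0.0472 to 0.10, CXCL2 from -0.0556 to 0.0128, IL1A from -0.11 to 0.0836, IL6 from -0.0114 to 0.0458, NFKBIA from -0.20 to 0.39 and TNFAIP3 from -0.0368 to 0.24. In the 4-1 line the ranges were CXCL1 from -0.11 to 0.0566 and CXCL3 from -0.0354 to 0.0559. In the 6-16 line the ranges were CXCL2 from -0.11 to 0.0355, CXCL3 from -0.0710 to 0.0266 and IL1A from -0.12 to 0.18. In the EGFP line the ranges were CCL20 from -0.71 to 0.0744, CXCL1 from -0.0150 to 0.11, CXCL3 from -0.0457 to 0.0724, IL1B from -0.0358 to 0.0334 and IL6 from -0.0759 to 0.0708. In the FGFR3 minus EGFP contrast the ranges were CCL20 from -0.0573 to 0.73, CXCL1 from -0.0828 to 0.0393, CXCL3 from -0.0414 to 0.0767 and IL6 from -0.12 to 0.0288.

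The count of members wholly separated by TACC3 was 2, also with arrays centred on their median. Within the marked sets, an alternative chosen after seeing the data, it was 3. There the same 2 members had to separate, and CCL20 was added. Of the 6 other probe sets of members 0 separated, while 2.90% of all genes lay wholly higher and 3.09% wholly lower on the probe set used. With only 6 probe sets, that 0 says little. The other TNFAIP3 probe set kept the order of its medians, at 7.08 below and 6.66 above. Quantile normalization and the missing detection calls limit what can be read from members at low signal.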
